A study of Mus musculus with 102 samples.

Results

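Most CpGs in the mouse genome are methylated, and the main exception is the CpG island, a short stretch in which CpGs lie close together and are usually free of methylation. The CpGs described here are the opposite case. They lie close together too but were methylated in mouse embryonic stem cells without TET enzymes. They were chosen from the SureSelect capture bisulfite table by 2 criteria, at least 10 other CpGs of the table within 100 bp on either side and a methylation level of at least 70% in TTKO cells at day 0. Of 2177608 CpGs in the table, 648066 met the first criterion and 24256 met both, which is 1.11% of the table and 3.74% of the dense CpGs. The TTKO day 0 level chose these CpGs, so that level and every difference from it are given as descriptions without a test.

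The wild-type cells are embryonic stem cells derived from mice on a C57BL6/J background that carry floxed alleles of both Dnmt3a and Dnmt3b (Dnmt3a/3b flox/flox). The TTKO cells are a single CRISPR clone of that line in which each of the TET genes was targeted, so clone and genotype cannot be told apart. Cre protein was delivered at day 0 to remove the floxed alleles, mock cells received buffer, and cells were collected at days 4, 8, 10, 13, 17 and 29. Excision was not complete in every cell, and cells were moved from feeders to feeder-free plates soon after transduction. The capture table holds TTKO cells at day 0 and at each of the 6 days after Cre, and wild-type cells at day 0 only. Each of its 8 columns joins 3 libraries, so the table gives no spread between replicates. Amplicon bisulfite sequencing, with 3 replicates per group, covered both lines with Cre and mock and measured 9 of the 24256 CpGs.

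Methyl groups on CpGs are placed de novo by DNMT3A and DNMT3B, copied to the daughter strand mainly by DNMT1, and oxidised by the TET enzymes as a first step of active demethylation. After removal of DNMT3A and DNMT3B a methylated CpG can lose its mark through imperfect copying at each division, and TET activity adds to this loss. A level measured with and without TET therefore bears on TET activity, and a level followed after Cre in cells without TET bears on maintenance. Dense CpGs that are methylated are known from germline gene promoters, imprinted loci, coding exons of some gene families and repeated DNA.

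Stretches from 8 islands are printed below to show what such sequences look like, each chosen for a result that follows. All are from the plus strand of the mm9 (NCBIM37) reference. The CpGs that met both criteria are in capitals, and lower case cg marks any other CpG, whether in the table or not.
Zfp629, coding exon, chr7:134754544-134754843, from the largest island: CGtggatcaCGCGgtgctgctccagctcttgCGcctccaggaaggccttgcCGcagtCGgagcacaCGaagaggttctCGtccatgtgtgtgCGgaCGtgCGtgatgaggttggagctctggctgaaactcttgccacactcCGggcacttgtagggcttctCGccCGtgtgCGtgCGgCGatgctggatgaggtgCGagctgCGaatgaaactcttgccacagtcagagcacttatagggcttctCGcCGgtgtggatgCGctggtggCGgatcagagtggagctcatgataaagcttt
Armc8, intron, chr9:99394339-99394638, methylated in every column: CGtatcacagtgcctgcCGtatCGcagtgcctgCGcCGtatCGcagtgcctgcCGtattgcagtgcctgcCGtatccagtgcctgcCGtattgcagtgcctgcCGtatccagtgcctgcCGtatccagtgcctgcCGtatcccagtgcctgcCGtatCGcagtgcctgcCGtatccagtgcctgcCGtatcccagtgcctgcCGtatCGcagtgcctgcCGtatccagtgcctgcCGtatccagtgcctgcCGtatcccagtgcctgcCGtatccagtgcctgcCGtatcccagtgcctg
C1galt1 (61151 bp from this gene), intergenic, chr6:7733624-7733692, the highest wild-type level: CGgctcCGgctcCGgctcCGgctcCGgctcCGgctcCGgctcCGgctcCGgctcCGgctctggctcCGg
Ston2, coding exon, chr12:92886776-92886946, methylated in TTKO and nearly free of methylation in wild type: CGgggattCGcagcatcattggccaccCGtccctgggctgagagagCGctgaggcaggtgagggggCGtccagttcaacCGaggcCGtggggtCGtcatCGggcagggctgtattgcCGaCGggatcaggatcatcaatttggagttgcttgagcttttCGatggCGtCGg
Lhx9, intron, chr1:140738022-140738321, a drop by day 4 and about the same level at day 29: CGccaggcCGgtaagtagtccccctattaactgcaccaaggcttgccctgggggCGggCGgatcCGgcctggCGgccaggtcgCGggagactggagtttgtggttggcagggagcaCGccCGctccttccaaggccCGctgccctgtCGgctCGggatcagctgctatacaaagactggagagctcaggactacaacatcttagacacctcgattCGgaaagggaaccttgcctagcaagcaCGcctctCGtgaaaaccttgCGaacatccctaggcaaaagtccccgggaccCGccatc
Epb4.1l3, intron, chr17:69632557-69632649, intermediate in wild type and alike on days 4 and 29: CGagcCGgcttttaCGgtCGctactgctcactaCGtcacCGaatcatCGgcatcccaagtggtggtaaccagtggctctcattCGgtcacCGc
Spen, coding exon, chr4:141034690-141034989, the least kept after Cre: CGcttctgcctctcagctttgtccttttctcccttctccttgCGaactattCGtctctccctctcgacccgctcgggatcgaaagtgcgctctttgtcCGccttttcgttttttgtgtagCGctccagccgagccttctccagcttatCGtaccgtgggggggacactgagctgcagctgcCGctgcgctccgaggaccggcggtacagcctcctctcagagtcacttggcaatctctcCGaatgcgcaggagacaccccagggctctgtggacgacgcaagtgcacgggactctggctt
AU022751, coding exon, chrX:5659127-5659278, the island also measured by amplicons: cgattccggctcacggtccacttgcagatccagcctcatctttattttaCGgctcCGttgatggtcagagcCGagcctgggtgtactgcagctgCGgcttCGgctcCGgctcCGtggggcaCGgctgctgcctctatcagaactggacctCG
The GC content of the 8 stretches lay between 58.1% and 82.6%. The ratio of observed to expected CpGs lay between 0.702 in the Lhx9 stretch and 1.17 in the Epb4.1l3 stretch. The C1galt1 stretch is a run of CGGCTC units, and the Armc8 stretch repeats a short unit many times. In the Spen stretch only 8 of 24 CpGs met both criteria.

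At TTKO day 0 the 24256 CpGs had a median methylation of 83.1%, with quartiles of 77.5 and 87.7%. After Cre the median was 80.9% on day 4 and 77.1% on day 8. It stood at 73.7% on day 10, 70.3% on day 13 and 63.6% on day 17, and ended at 57.0% on day 29. In wild-type cells at day 0 the median was 52.4% and the quartiles, 32.2 and 70.4%, were much farther apart. The 588734 other CpGs at 70% or more began at nearly the same level, 80.5%, reached 52.2% at day 29 and stood at 63.3% in wild type. Counted by CpG, the methylated islands had the higher median of these groups at day 29 and the lower median in wild-type cells. With each island counted alike their median was 50.55% at day 29 and 41.2% in wild type, values that cannot be set against those of the other CpGs, which were not weighted in this way. Among CpGs at 70 to 80% at TTKO day 0 the day 29 medians were 41.9% in the islands and 42.1% in the others, at 80 to 90% they were 61.9 and 60.5%, and at 90 to 100% 80.35 and 76.2%. The median number of reads per CpG lay between 155 at day 8 and 295 at day 17. At the median coverage, a 95% binomial (Wilson) interval reached 5.89 percentage points to either side of the wild-type median and 5.94 points to either side of the day 29 median, for counting error only. Dense CpGs under 70% at TTKO day 0, which include the classic islands, had a median of 1.4% at TTKO day 0 and 1.3% in wild type.

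**Figure D1:**
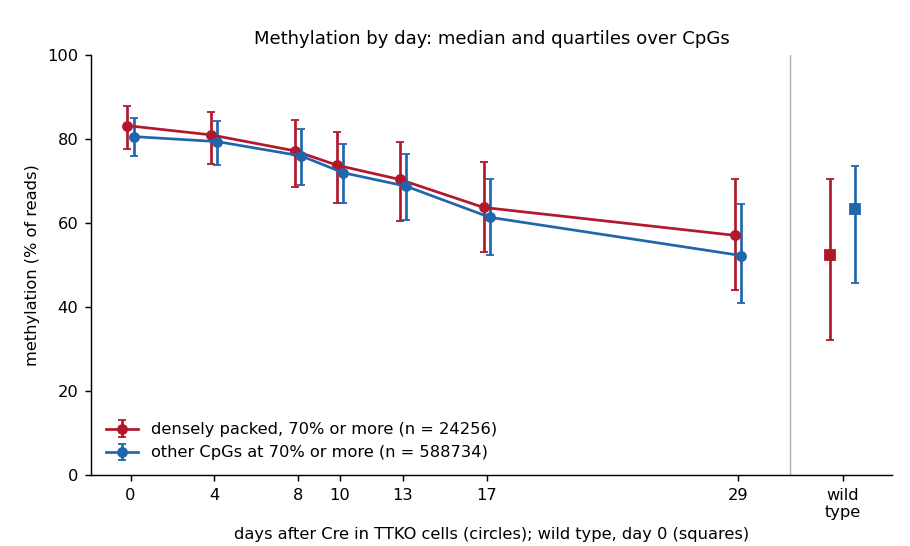
Methylation (percent of reads, vertical axis) of the densely packed methylated CpGs (red, n = 24256) and of the other CpGs at 70% or more at TTKO day 0 (blue, n = 588734), by day after Cre in TTKO cells (circles) and in wild-type cells at day 0 (squares); points are medians over CpGs and bars run from the lower to the upper quartile. Counted by CpG, the red circle is above the blue at day 29 (57.0 against 52.2%) and the red square is below the blue in wild type (52.4 against 63.3%).

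The first question was how far these CpGs lost methylation after Cre. The capture table holds no mock samples, so Cre cannot be told apart there from time in culture. Day 29 was set against day 4, since neither column was used to choose the CpGs. Day 4 is the same line as the day 0 column, so choosing CpGs that are high at day 0 favours a fall. The whole table also holds many CpGs with little to lose, with a day 4 median of 21.1%. The shares of calls are therefore read beside those of the other CpGs at 70% or more. By Fisher's exact test on joined reads, two-sided with Benjamini-Hochberg adjustment over all 2177608 CpGs at a threshold of 0.05, 21116 of the 24256 were lower at day 29, or 87.1%. The share over the whole table was 57.1%, and over the other CpGs at 70% or more it was 91.7%. Only 10 were higher at day 29, against 0.112% of the table and 0.00764% of the other highly methylated CpGs. The test compares pools of libraries, not replicates. The median change was -22.5 percentage points in the islands and -26.4 points in the other highly methylated CpGs. The median CpG of an island kept 71.5% of its day 4 level at day 29, with quartiles of 59.0 and 83.5%, where the other CpGs kept 66.3%. With each island counted alike the share kept was 66.8%, while the others were not weighted in this way. Among the 24256, 3281 kept at least 90% and 2814 kept less than 50%.

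The mean level of the islands fell by 0.713 points per day between days 0 and 4. In the same interval the other highly methylated CpGs fell by 0.446 points per day. Between days 4 and 8 the islands fell by 0.927 points per day and the others fell by 0.876 points per day. Between days 8 and 10 the mean of the islands fell by 1.62 points per day, where the other highly methylated CpGs fell by 1.94 points per day. Between days 17 and 29 the islands fell by 0.529 points per day and the others fell by 0.705 points per day. These are means over CpGs of joined libraries and were not tested.

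The second question was how far the levels of these CpGs differed between the TTKO clone and wild-type cells. With a single clone, the loss of TET cannot be told apart from other traits of that clone. The level at TTKO day 0 was 29.9 percentage points above wild type in the median, with quartiles of 14.5 and 47.5 points, against 16.7 points in the other CpGs at 70% or more. The log2 odds ratio of TTKO day 0 over wild type, the measure that the study's rate model reads as TET activity, had a median of 2.16 in the islands and 1.30 in the others. For a test, wild type was set against the TTKO day 4 column, whose reads were not used in the choice. It is the same line 4 days after Cre, so choosing CpGs that are high in TTKO cells favours a lower wild-type level. The shares of calls below are therefore read beside those of the other CpGs chosen by the same TTKO level. The wild-type cells were at day 0 and had not been transduced, so line cannot be told apart here from day and handling. In this comparison 20178 of the 24256 CpGs, 83.2%, were lower in wild type by Fisher's exact test with the same adjustment. The share was 40.9% over the whole table and 67.5% over the other CpGs at 70% or more. In the opposite direction 19 of the island CpGs were higher in wild type, against 1.33% of the table and 0.0956% of the other highly methylated CpGs. The share of calls in the islands was above that of the other highly methylated CpGs here and below it for loss after Cre, both given as descriptions, since CpGs of an island share reads.

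Wild-type levels covered the whole range. Of the 24256 CpGs, 803 were under 10% in wild-type cells, 4644 between 10 and 30%, 5892 between 30 and 50%, 6687 between 50 and 70% and 6230 at 70% or above. The TTKO day 29 median was 42.6% in the lowest of these classes and 75.3% in the highest. CpGs at 70% or above in wild type kept a median of 86.1% of their day 4 level at day 29, and those between 10 and 30% kept 61.5%. Across the 24256 CpGs the wild-type level and the share kept had a Pearson r of 0.51, a description over CpGs that share islands, reads and the day 4 column. In 14791 of them, the day 29 level of TTKO cells was still above the wild-type level.

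The gap to wild type widened with CpG density even when the TTKO day 0 level was alike. Among CpGs at 70 to 80% at TTKO day 0, the wild-type median was 60.5% with 0 to 2 neighbours within 100 bp, 52.1% with 3 to 5, 41.1% with 6 to 9, 35.5% with 10 to 14 and 31.4% with 15 or more. The log2 odds ratio went from 0.99 to 2.72 over the same classes. Among CpGs at 80 to 90% the wild-type median went from 71.4% to 54.0%, and among those at 90 to 100% from 80.3% to 76.6%. The share kept after Cre moved less than the wild-type level at 70 to 80% and at 80 to 90%, and more at 90 to 100%. At 70 to 80% it was 57.6, 56.9, 56.5, 58.0 and 62.6% from the sparsest to the densest class. It went from 72.4 to 76.7% at 80 to 90% and from 82.8 to 91.9% at 90 to 100%. No test was made on these classes.

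**Figure D2:**
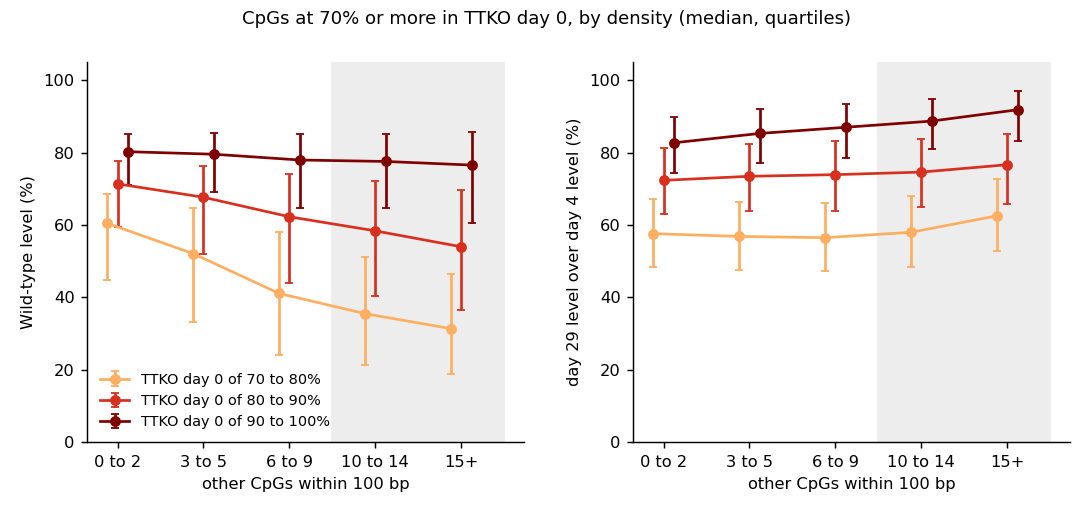
CpGs at 70% or more at TTKO day 0 by the number of other CpGs within 100 bp (horizontal axis) and by TTKO day 0 level (colours); the left panel gives the wild-type level and the right panel the day 29 level over the day 4 level, both in percent, as medians with quartile bars, and grey marks the classes with 10 or more neighbours. In the lowest colour class the wild-type median runs from 60.5 to 31.4% as density grows, while the share kept runs from 57.6 to 62.6%.

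The limits of the choice changed these values gradually. CpGs with 10 or more neighbours that were just inside the threshold, from 70 to under 71% at TTKO day 0, had a wild-type median of 27.2% (n = 762), and those just outside it, from 69 to under 70%, had 25.4% (n = 690). With exactly 10 neighbours the wild-type median was 53.4%, as with exactly 9.

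The methylated islands lay in other places than the unmethylated ones. Coding exons held 43.6% of the 24256 CpGs, against 11.4% of dense CpGs under 70% and 7.23% of the other highly methylated CpGs. Promoters, taken as 1000 bp upstream to 500 bp downstream of a transcript start, held 11.3%, against 66.5% of dense CpGs under 70%. Intergenic sequence held 19.2% and introns 16.9%. Within coding exons the median position was 76.8% of the way along the gene, and 51.7% lay in the last 25% of it. The other highly methylated CpGs in coding exons also lay late in the gene, at 69.5% in the median with 43.1% in the last 25%, as against 61.4 and 37.0% over the table. Coding exon CpGs had a wild-type median of 49.8% and kept 69.1% of the day 4 level, promoter CpGs 52.3 and 74.3%, and intergenic CpGs 54.5 and 74.5%. Exons of transcripts with no coding frame stood highest, at 63.3% in wild type and 77.0% kept. The median GC content around the 24256 CpGs was 58.9%, between 49.5% for the other highly methylated CpGs and 65.3% for the dense CpGs under 70%. The median number of table neighbours within 100 bp was 11, against 15 for the dense CpGs under 70%, so the methylated islands were the less dense of these.

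Few of them bordered a classic island. For 64.1% the nearest dense CpG under 10% at TTKO day 0 was over 10000 bp away, and for 6.17% it lay within 250 bp. CpGs within 250 bp of such an unmethylated island had a wild-type median of 32.2% and those over 10000 bp away had 57.0%. The order held at matched TTKO day 0 levels. At 80 to 90% at day 0, the wild-type median was 44.6% within 1000 bp and 59.1% beyond, while the share kept after Cre was 74.37 and 74.97%. At 70 to 80% the nearer CpGs had 27.3% in wild type and the farther 36.5%, and the share kept was 62.0% and 57.9%. Without matching, the share kept was 66.6% within 250 bp and 74.2% over 10000 bp away.

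The bases next to the CpG went with the wild-type level more than with the loss after Cre. Read on either strand, CpGs in GCGC had a wild-type median of 64.1%, those in GCGA 58.0%, and those in CCGG and ACGT 44.9 and 45.0%. All 10 contexts had TTKO day 0 medians between 81.2 and 83.9%. In the other highly methylated CpGs GCGC was also highest, at 70.9%, and CCGG lowest, at 58.4%. The share kept in the islands ranged from 68.4% in ACGT to 73.9% in CCGG.

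Joining CpGs that lay within 100 bp of the next gave 4377 groups, called islands here, of which 1183 held a single CpG. Island means leave out CpGs of the same stretch that did not meet both criteria. The 1140 islands with at least 8 CpGs held 15508 of the 24256 and are described as units from here on. Their mean wild-type level ran from 5.05 to 93.4%, with 143 islands under 30%, 681 between 30 and 70% and 316 at 70% or more. The spread within an island was smaller than between islands, with a median SD of 9.50 points among the CpGs of 1 island and an SD of 19.5 points among island means. At day 29 the spread within an island, 11.3 points, was nearly that between islands, 12.9 points. The share of the day 4 level kept at day 29 ran from 40.9 to 105.3%, with a median of 73.5%. In 573 islands every CpG was called lower at day 29, and in 7 islands none was. Of the 99 islands that kept at least 90%, 78 were at 70% or more in wild type, 17 between 30 and 70% and 4 under 30%.

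**Figure D3:**
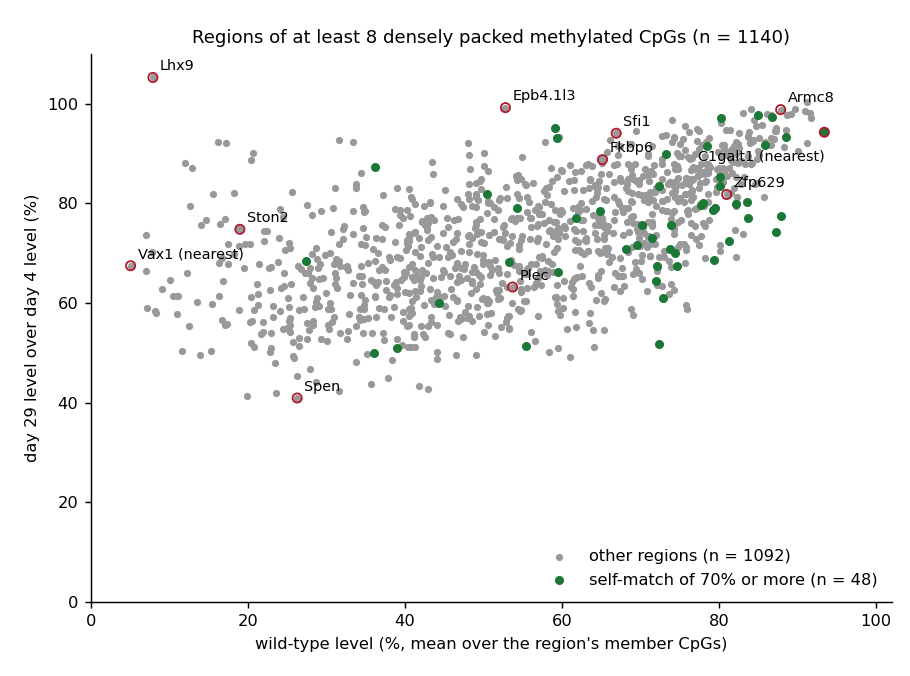
The 1140 islands of at least 8 CpGs by mean wild-type level (horizontal axis, percent) and by the day 29 level over the day 4 level in TTKO cells after Cre (vertical axis, percent); green points are the 48 islands, Armc8 not among them, in which at least 70% of bases equal the base a fixed number of positions further on, and red rings mark islands named in the text. Islands at 70% or more in wild type kept a median of 84.6%, those under 30% kept 62.7%, and the Lhx9 island, at the upper left, kept the most.

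The largest island was in Zfp629, which encodes a C2H2 zinc finger protein. Its 68 CpGs lay over 983 bp of the coding exon and averaged 86.9% at TTKO day 0 and 81.0% in wild type. After Cre they went from 85.2% on day 4 to 74.8% on day 17 and 69.7% on day 29. The island was high in every column, and the range over its CpGs was 72.5 to 88.3% in wild type. At day 29 62 of its 68 CpGs were lower than at day 4, while 11 were lower in wild type than at day 4. Zfp13, another C2H2 zinc finger gene, had 45 CpGs in a coding exon that averaged 83.5% at TTKO day 0, 48.5% in wild type and 48.8% at TTKO day 29. Here 44 of 45 CpGs were lower in each of the comparisons. Coding exon islands also stood out by size in Plec, which encodes the cytoskeletal linker plectin, and in Sall3, a zinc finger transcription factor. The Plec island (38 CpGs) averaged 53.7% in wild type and 49.4% at day 29, and the Sall3 island (38 CpGs) 63.3 and 58.1%. A 38 CpG island 256149 bp from Col12a1, a collagen gene, averaged 55.5% in wild type and kept 81.3% of its day 4 level.

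Some islands were highly methylated in wild type and changed little after Cre. In an intron of Armc8, which encodes a subunit of a ubiquitin ligase complex, 38 CpGs averaged 91.3% at TTKO day 0, between 89.6 and 92.1% at each day after Cre, and 87.8% in wild type. Of these, 5 were lower at day 29 and 8 were lower in wild type. An 11 CpG island near C1galt1 had the highest wild-type mean, 93.4%, with 89.8% at day 29. Islands near Zc3hav1l (91.6% in wild type) and Grb14 (91.3%), in the noncoding gene 9330111N05Rik (91.2%) and in an intron of the protocadherin Pcdha11 (91.7%) followed. None of the CpGs of these 5 islands was lower in wild type. At day 29, 5 of 12 CpGs near Grb14 were lower than at day 4 (92.4 to 85.2%), as were 3 of 11 near C1galt1, 4 of 21 in Pcdha11 and 2 of 11 near Zc3hav1l. In 9330111N05Rik no CpG of 19 was lower at day 29 and 1 was higher, with means of 90.8% at day 4 and 91.1% at day 29. In a coding exon of Il3ra, an interleukin receptor gene, none of 10 CpGs was lower, with 85.4% at day 4 and 84.6% at day 29.

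Other islands were highly methylated in TTKO cells and low in wild type. Ston2, which encodes an endocytic adaptor, held 2 islands in the same coding exon. The larger (38 CpGs) averaged 81.9% at TTKO day 0, 18.96% in wild type and 57.5% at TTKO day 29. The smaller (14 CpGs, printed above) averaged 79.1, 6.99 and 56.9%. Every CpG of both was lower in wild type than at TTKO day 4 and lower at day 29. Similar wild-type means were found 69172 bp from Msx1, a homeobox gene (13 CpGs, 6.99%), at the promoter of Hand1, a bHLH factor of heart and trophoblast (9 CpGs, 7.13%), and in an intron of Celf4, an RNA-binding protein gene (9 CpGs, 7.81%). At TTKO day 0 these were at 78.6, 77.97 and 80.9%. The lowest wild-type mean, 5.05%, was 22971 bp from Vax1, a homeobox gene (15 CpGs). It went from 74.3% at TTKO day 0 to 53.5% at day 4 and 36.1% at day 29.

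Of the 5 islands that kept the least after Cre, 4 were in coding exons and 1, in Bcl7a, was in a UTR. In Spen, a transcriptional corepressor gene, 14 CpGs averaged 75.7% before Cre and 70.4% on day 4. They were at 60.01% on day 10, 42.3% on day 17 and 28.8% on day 29, which is 40.9% of the day 4 level. The next were in Bcl7a, a chromatin remodelling subunit gene (41.4% kept), Kifc5b, a kinesin gene (41.9%), Fbxo31, an F-box gene (42.4%), and Ankrd24 (42.8%). All CpGs of these 5 islands were lower at day 29. Their wild-type means lay between 19.9% in Bcl7a and 42.9% in Ankrd24.

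The island that kept the most of its day 4 level was in Lhx9. This gene encodes a LIM homeobox factor, and 32 CpGs over 469 bp of its intron and exon averaged 76.8% at TTKO day 0. They stood at 52.2% at day 4, between 47.6 and 52.4% from day 8 to day 17, and at 54.9% at day 29. None was lower at day 29 than at day 4 and 2 were higher. In wild type they averaged 7.88%, and all 32 were lower there than at TTKO day 4. The islands near Lhx9 and Vax1 were the only 2 of the 1140 to lose over 15 points between day 0 and day 4. In an intron of Epb4.1l3, a membrane cytoskeleton gene, 9 CpGs averaged 52.8% in wild type, 83.4% at TTKO day 4 and 82.8% at day 29. Day 4 was the lowest of the early columns, with 88.5% before Cre and 89.8% on day 8. None of the 9 was lower at day 29 while all 9 were lower in wild type.

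**Figure D4:**
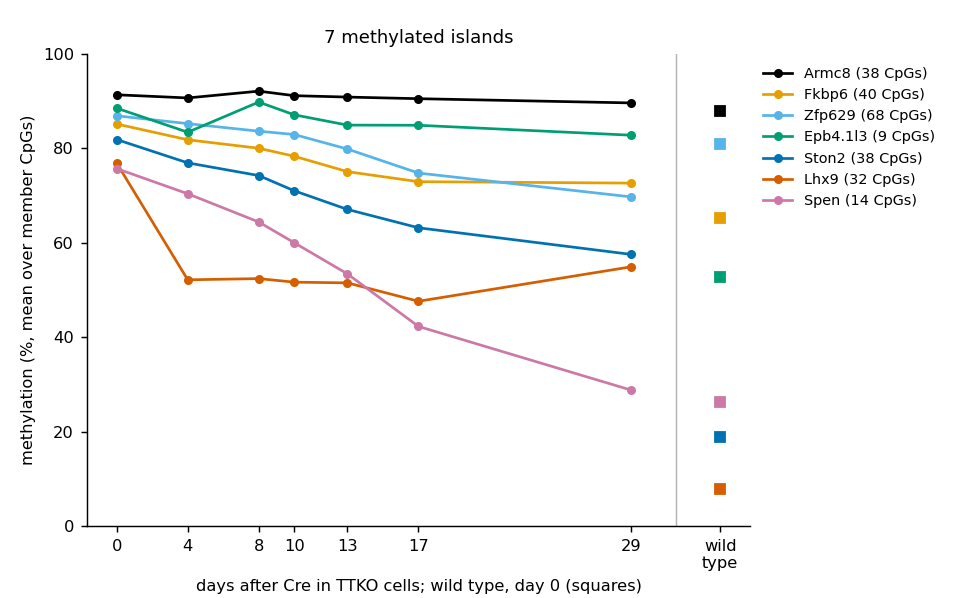
Mean methylation over the island CpGs (percent, vertical axis) by day after Cre in TTKO cells (circles and lines) and in wild type at day 0 (squares) for 7 islands. Armc8 stays near 90% throughout, Spen runs from 75.7 to 28.8%, and Lhx9 drops to 52.2% by day 4 and stands at 54.9% at day 29 with 7.88% in wild type.

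The Armc8 and C1galt1 stretches repeat themselves, so the share of bases equal to the base a fixed number of positions further on was computed for each of the 1140 islands, with shifts from 2 to 60 bases. This measure was chosen after those sequences had been seen. The C1galt1 island matched itself at 98.2% with a shift of 12, the Armc8 island at 62.1% with a shift of 17, and the median island at 37.2%. In all, 48 islands (4.21%) reached 70%. They made up 0.699% of islands under 30% in wild type, 2.20% of those between 30 and 70% and 10.1% of those at 70% or more. The 48 had a median of 73.5% in wild type and 77.3% kept, against 55.5 and 73.3% in the other 1092. At matched TTKO day 0 levels of 80 to 90%, the wild-type medians were 73.0 and 59.7% and the shares kept 78.6 and 75.2%. At 90 to 100%, with 6 islands of the 48 and 52 others, the wild-type medians were 83.6 and 82.2%, and the shares kept had the other order, 80.1 and 89.8%. None of the 48 lay mostly in coding exons. Their median coverage at TTKO day 0 was 212.5 reads, against 266.25 in the others, and the part of repeated sequence in where short reads align was not tested.

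Many germline genes are silenced by promoter methylation outside germ cells. Of 18060 protein-coding genes with a CpG of the table in or within 1000 bp of them, 13.4% had one of the 4377 islands in that range, and the counts of genes below are to be read beside this share, with no test. Of 96 germline genes, 24 had an island, 34 islands and 239 CpGs in all, with medians of 81.9% at TTKO day 0, 63.8% at day 29 and 63.8% in wild type. At the promoter of Fkbp6, which acts in meiosis and in the piRNA pathway, 40 CpGs averaged 85.1% at TTKO day 0 and 65.1% in wild type, with 72.9% on day 17 and 72.6% on day 29 after Cre. At the promoter of Dpep3, a testis dipeptidase gene, 27 CpGs averaged 76.5% in wild type and 61.1% at day 29, and 26 of them were lower at day 29. The promoters of Dazl, an RNA-binding protein of germ cells (25 CpGs), and Slc25a31, a testis ADP/ATP carrier (22 CpGs), averaged 59.9 and 64.6% in wild type and 62.1 and 63.3% at day 29.

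Hox genes, the homeobox genes of body axis patterning, had 10 islands in 7 of 39 genes, with 28 CpGs. Their medians were 76.0% at TTKO day 0, 41.4% at day 29 and 15.2% in wild type, and 8 of 10 islands were under 30% in wild type. In the coding exon of Hoxc4, 7 CpGs averaged 75.4% at TTKO day 0, 39.4% at day 29 and 6.79% in wild type, and all 7 were lower in both comparisons. At Hoxa7, 8 CpGs averaged 45.7% in wild type. Clustered protocadherins, whose alternative promoters give neurons their identity, had 39 islands in 13 of 25 genes, with medians of 80.7% at TTKO day 0, 63.0% at day 29 and 61.4% in wild type. One of these, a 17 CpG island in Pcdha11, was 81.3% in wild type against 76.6% at TTKO day 4, with 6 CpGs higher and 1 lower in wild type. Zinc finger genes named Zfp with a number had 64 islands in 38 of 343 genes, with medians of 55.0% at day 29 and 54.4% in wild type.

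Imprinted genes, expressed from 1 parental allele, had 10 islands in 7 of 49 genes, with medians of 85.1% at TTKO day 0, 64.3% at day 29 and 57.6% in wild type. At H19, a noncoding RNA expressed from the maternal allele, 12 CpGs averaged 82.2% at TTKO day 0, 60.7% at day 29 and 62.7% in wild type. The table does not separate the alleles. In Trappc9, a coding exon island of 27 CpGs averaged 48.1% in wild type and kept 71.8% of its day 4 level, with 26 CpGs lower at day 29 and 27 lower in wild type. The same gene held an island at an internal promoter (12 CpGs) that kept 90.9% of its day 4 level and averaged 77.4% in wild type. Among genes for the DNMT and TET enzymes themselves, Tet3 had 3 islands and Dnmt3a had 1. The largest, with 14 CpGs in a Tet3 coding exon, averaged 80.2% in wild type and 75.04% at day 29. None of the 15 genes of a short pluripotency list, among them Pou5f1, Nanog and Sox2, had an island. Sall4, a related factor gene outside that list that was looked up after the values were seen, held islands of 14 and 18 CpGs, with 40.4 and 20.3% in wild type, so the count depends on the genes listed.

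The amplicon libraries measured a single island, in a coding exon of AU022751 on the X chromosome (printed above), with at least 5048 reads at each CpG in the day 0 and day 29 libraries used here. In the capture table its 9 CpGs averaged 92.7% at TTKO day 0, 86.7% at day 29 and 82.6% in wild type. In TTKO amplicons at day 29 the mean over the 9 CpGs was 86.7, 91.8 and 88.0% in the Cre replicates and 92.4, 97.8 and 97.0% in the mock replicates. The groups did not overlap, and the means were 88.8 ± 2.63% and 95.8 ± 2.92% (SD, n = 3 each). By the quasi-binomial model with limma's moderated dispersion and Benjamini-Hochberg adjustment over 405 amplicon CpGs, 4 of the 9 were lower after Cre, against 68.6% of all amplicon CpGs. The adjusted p of the 9 ran from 0.00367 to 0.778. The exact permutation test on the mean over the 9 CpGs gave p = 0.1, the smallest it can give with 3 against 3.

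In wild-type cells at day 29 the Cre replicates were at 78.4, 81.9 and 76.8% and the mock replicates at 94.2, 93.8 and 93.5%. Again the groups did not overlap, with means of 79.0 ± 2.62% and 93.8 ± 0.375% (SD, n = 3 each) and an exact permutation p = 0.1. By the same model 8 of the 9 CpGs were lower after Cre, against 52.3% of all amplicon CpGs, and the largest change was a log2 odds ratio of -3.05 ± 0.315 (SE). Cre minus mock was -14.8 points in wild type and -6.93 points in TTKO cells. Tested as an interaction of line and treatment with the limma-moderated model, none of the 9 CpGs differed between lines after adjustment, against 2.96% of all amplicon CpGs with more loss in wild type, and 1 did at an unadjusted p under 0.05. The median interaction was -0.93 on the log2 odds ratio scale, and at 8 of the 9 CpGs the estimate had the sign of more loss in wild type. Without the first TTKO mock replicate this median was 0.12.

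At day 0 the wild-type replicates were at 88.3, 90.8 and 90.1% and the TTKO replicates at 96.2, 94.1 and 94.0%. The means were 89.7 ± 1.28% and 94.8 ± 1.24% (SD, n = 3 each), and 5 of the 9 CpGs were called lower in wild type, against 59.3% of all amplicon CpGs. The TTKO day 0 side of this contrast chose the CpGs, in the capture table. Both assays used DNA from the same time points, possibly from the same extractions, so the count is a description. None of the 9 was higher in wild type, against 1.48% of all. With dispersion taken from all samples this count was 0. In the mock samples of later days the lines overlapped on 5 of 6 days. Wild-type mock cells were at 98.3 ± 1.51% at day 4 and 93.8 ± 0.375% at day 29, and TTKO mock cells at 96.2 ± 1.66% and 95.8 ± 2.92% (SD, n = 3 each). The exception was day 17, with wild-type mock at 94.3, 95.7 and 94.1% and TTKO mock at 97.0, 96.5 and 98.7%.

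**Figure D5:**
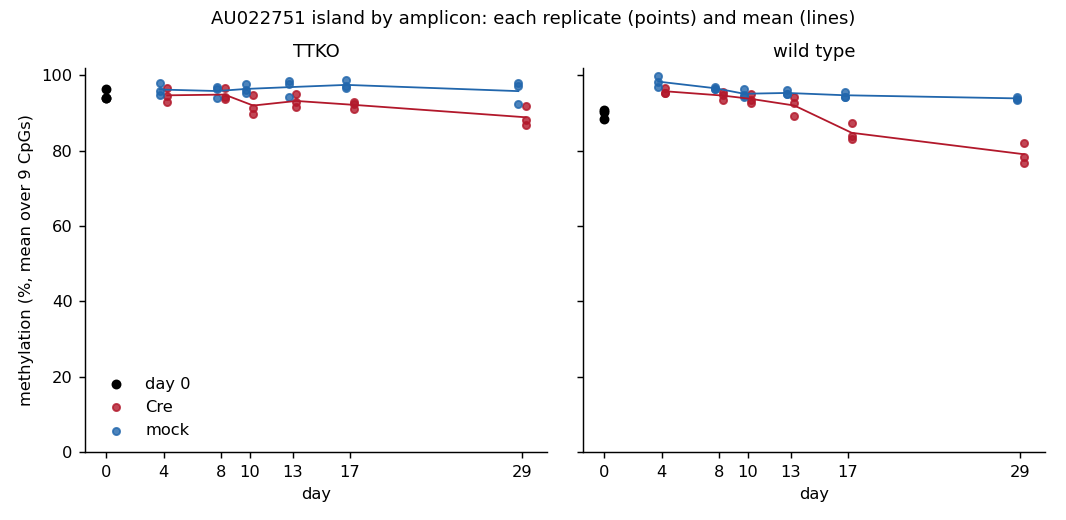
Methylation of the AU022751 island by amplicon (percent, mean over 9 CpGs, vertical axis) by day, for TTKO cells (left) and wild-type cells (right); points are replicates (n = 3 per group), lines join group means, and black, red and blue mark day 0, Cre and mock. At day 29 the Cre replicates lie under the mock replicates in both lines, at 88.8% in TTKO and 79.0% in wild type on average.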

How the data were processed

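The authors aligned bisulfite reads to mm9 with QuasR/Rbowtie and deposited capture methylation as percent with read coverage per CpG (at least 50 reads per column, 3 replicates joined) and amplicon methylation as a fraction with coverage counts per sample (at least 100 reads). Methylated read counts were recovered from the percent and coverage columns, and came out whole for 17420864 of 17420864 values within 0.05 percentage points, a tolerance that any value over 1000 reads meets. All capture CpGs lay on CG in the reference. Rates, confidence classes and TET activities in the deposited tables were not used. Reads summed over CpGs were 421283985 to 740590811 per capture column. The study's methods call the replicates biological, and amplicon p-values measure the spread between them.

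Capture tests were Fisher's exact (numba 0.67.0, scipy 1.17.1), amplicon tests quasi-binomial with 0.5 added and limma 3.58.1 (R 4.3.3), both tested on simulated data. Gene models were GENCODE for NCBIM37. Islands named are the 10 with most CpGs, the 5 lowest and highest by wild-type level and by share kept among those with at least 8 CpGs, up to 4 per gene list, and the amplicon island; 1 of these is not reported here. Members and lists were chosen with earlier results of these data known. Alternatives changed coverage, neighbours, thresholds, dispersion and replicates.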

Additional observations from a re-analysis of the deposited data

How the results depend on the processing

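Under 9 alternatives each, the share of island CpGs lower at day 29 lay between 82.2 and 89.9% and the share lower in wild type between 78.9 and 86.3%. Choosing CpGs at 80% or more at TTKO day 0 gave 15740 CpGs, with a median of 62.5% in wild type and 65.6% at day 29. With each island counted alike the medians were 41.2% in wild type, 38.0 points below TTKO day 0 and 50.55% at day 29, while the other highly methylated CpGs were not weighted in this way. At least 15 neighbours gave 3226 CpGs and at least 8 gave 50029. Leaving out repeats was not run, since the reference does not mark them. The tests without CpGs over 1000 reads were planned, while the same choice for the levels and autosomes only were chosen after seeing the data. With dispersion from all samples, 0 of 9 amplicon CpGs were lower in wild type at day 0. Leaving out each replicate gave 4 to 6 CpGs lower after Cre in TTKO, 6 to 9 in wild type, 4 to 5 lower in wild type at day 0 and 0 to 0 in the interaction. The replicate numbers did not pair the samples (same-number correlations between -0.0967 and 0.0697). With the replicate as a block the counts were 5, 7, 5 and 0, and over all amplicon CpGs the interaction gave 0 calls in place of 23. In the capture table no paired analysis was possible because replicates are joined.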

Other observations

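A 44 CpG island at the promoter of Sfi1 also overlaps the gene Drg1. This island had a median of 4843 reads per CpG at TTKO day 0, far above the 262 of the median island CpG. It averaged 83.9% at TTKO day 0, 77.2% at day 29 and 66.9% in wild type. In all, 576 of the 24256 CpGs (2.37%) had over 1000 reads in at least 1 column. The part of sequence copies in this coverage was not tested.

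The 405 island CpGs on the X chromosome had a median of 64.5% in wild type and kept 79.98% of their day 4 level, and the 36 on the Y chromosome had 71.8% and kept 90.4%. On the autosomes the medians by chromosome lay between 45.9 and 57.3% in wild type and between 66.9 and 76.1% kept.

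In 334 of the 24256 CpGs the wild-type level was above the TTKO day 0 level. In the AU022751 island, wild-type cells at day 0 (88.3 to 90.8% over replicates) were below each of the wild-type mock samples at day 4 (96.9 to 99.9%), a difference between days without Cre that was not tested. The median over the other amplicon CpGs was also lower in wild type at day 0, at 10.3%, than in wild-type mock cells at day 4, at 23.4%.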
